A study of Mus musculus with 66 samples.

Results

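Clustered histone genes are the genes for the linker histone H1 and the core histones H2A, H2B, H3 and H4 that lie side by side in a few stretches of the mouse genome. They were taken from the deposited table as the rows with a symbol that begins Hist1h, Hist2h, Hist3h or Hist4h and a value of 10 or more in at least 2 of 66 libraries. Of 24410 genes in the table, 68 carried such a symbol and 63 passed, against 15714 of all genes that passed the same filter and were tested. The 63 members were 5 H1, 16 H2A, 18 H2B, 12 H3 and 12 H4 genes. By position 49 belonged to Hist1 on chromosome 13, 10 to Hist2 on chromosome 3, 3 to Hist3 on chromosome 11 and 1 to Hist4 on chromosome 6, and 62 were annotated as protein coding and 1, Hist3h2bb-ps, as a processed pseudogene.

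Most clustered histone genes are transcribed in S phase, when new DNA has to be packed into nucleosomes. Their messages are unusual in that they end in a conserved stem-loop, which the stem-loop binding protein Slbp holds, and not in a poly(A) tail, and they are degraded when replication stops. Some members also make polyadenylated messages, by reading past the stem-loop to a poly(A) signal, and such messages are known from cells that leave the cell cycle.

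The libraries came from mouse embryonic stem cells turned into ventral spinal cord progenitors and collected on days 5, 7, 9 and 11. The cells began in medium with 10 ng/ml bFGF, were given 5 µM CHIR99021, a GSK3β inhibitor, on day 2, then 100 nM retinoic acid with 10 nM of the Smoothened agonist SAG on day 3, and were held in SAG alone from day 5. They were fixed in glyoxal, stained and sorted, at 10000 to 15000 cells a population, and the libraries were labelled as polyadenylated RNA. The 37 WT and 29 MUT libraries made 26 groups of 1 to 3 libraries by genotype, day, domain (p1, p2 or pM) and gate (NFIAn or NFIAp). The mutated gene and the cell line are not named in the labels. All MUT libraries, and WT libraries of days 5 and 7, carried the label NFIAn, WT day 11 carried NFIAp, and WT day 9 was NFIAn in all 3 domains and also NFIAp in p2 and pM. From day 5 to day 11 in WT, the day and the gate therefore cannot be told apart, and at day 11 neither can the genotype and the gate. Nothing in the labels says whether replicates were separate cultures, so the p-values measure the spread between libraries, which may be technical. In sorted bulk RNA, fewer cells that transcribe a gene and less RNA in each cell cannot be told apart either.

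The reads recovered from the deposited values came to 8.74 M in the shallowest library (MUT day 5 p2 replicate 2) and 20.3 to 30.8 M in the others. The domain labels were compared with Dbx1, a transcription factor, at 3032 to 13683 normalised counts in p1 and up to 2074 in p2 and 477 in pM. Its values set the p1 libraries apart from p2 and pM only. Olig2, the motor neuron progenitor factor, was at 658 to 4544 in pM and at most 173 elsewhere, and the median of Foxn4, a p2 factor, was 317 in p2 against 6.85 in p1 and 28.9 in pM. A set of 18 libraries (day 7 replicate 3 and day 9 replicates 2 and 3) stood apart: their normalised counts summed to 26.6 to 40.2 M over all genes, against 17.8 to 25.5 M in the other 48. Genes of ribosomal proteins took a median of 11.2% of the counts in those 18 and 7.44% in the 48.

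The histone signal moved with these 18 libraries. The 63 members summed to between 111126 and 367931 normalised counts there, with a median of 233533, and to between 30436 and 185417, median 97775, in the other 48. As a share of all counts the medians were 0.759% and 0.472%. In 13 groups both kinds of library were present, and the high-total ones had the larger histone sum in all 13, with 54 to 62 of the 63 members higher and a median difference of 0.88 to 1.94 on the log2 scale. These counts and differences were not set against those of all genes, so they are not shown to be particular to histones. The counts of members called in comparisons that use day 7 or day 9 are therefore given with and without these libraries. At day 11 replicate 2 was above replicate 3 in each of the 6 groups, by 1.63 to 4.33 times, and ribosomal protein genes took 5.87 to 10.0% of the counts in replicate 2 and 2.48 to 4.90% in replicate 3. The part of either pattern in the results that follow was not tested.

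**Figure D1:**
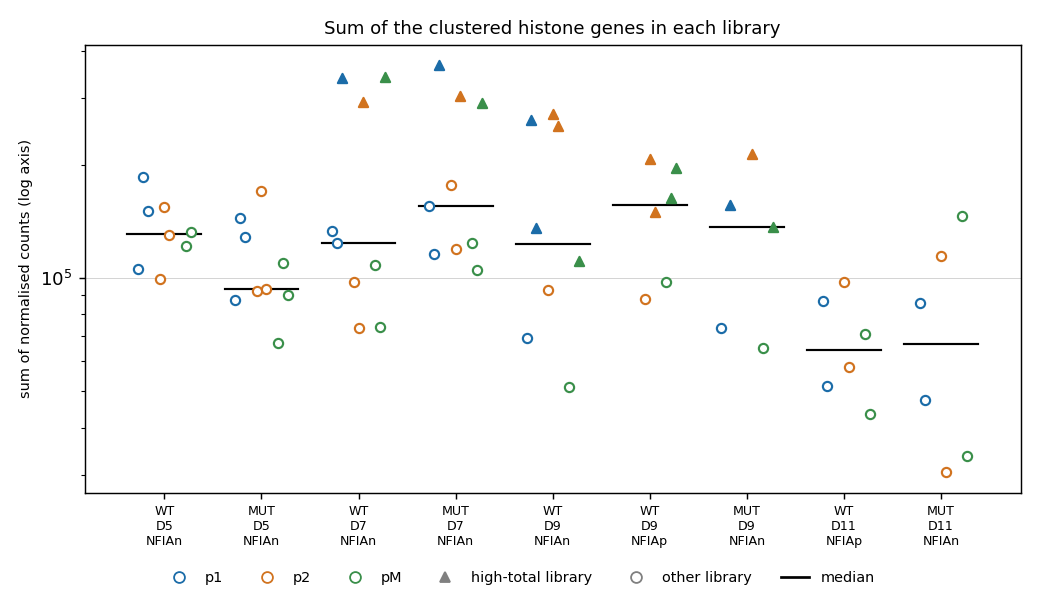
Sum of the normalised counts of the 63 clustered histone genes (vertical axis) in every library, by genotype, day and gate, with domains in colour, high-total libraries as filled triangles and the median of each set as a black line. Day 11 libraries lie between 30436 and 145688, and the day 7 replicate 3 libraries between 291810 and 367931.

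The histone stem-loop motif of 16 bases was searched for on the sense strand of the gene models, and 40 of the 63 members held it. Its forms were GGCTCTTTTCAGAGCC in 25 genes, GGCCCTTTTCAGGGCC in 7, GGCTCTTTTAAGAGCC in 5, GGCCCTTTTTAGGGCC in 2 and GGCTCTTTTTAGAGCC in 1. Of 15029 other tested genes with a model, 4 (0.0266%) held it: Alg1, Notch1, Trim17 and H2afx, the gene for the variant H2A.X. The sequences shown are 30 bases around the stem-loop, in DNA letters, 5′ to 3′, from GENCODE M21 transcripts on GRCm38. Capitals mark the stem-loop. They are shown because Hist1h2ao, Hist1h2ad, Hist1h1e and Hist1h1c, which fell between day 5 and day 11, carry the same 16 letters as Hist3h2ba and Hist3h2a, which rose.
Hist1h2ao: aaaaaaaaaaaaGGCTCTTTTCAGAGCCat
Hist1h2ad: tataaaaacaaaGGCTCTTTTCAGAGCCat
Hist1h1e: caacaacccaaaGGCTCTTTTCAGAGCCac
Hist1h1c: aacaatccaaaaGGCTCTTTTCAGAGCCac
Hist1h4d: ccaaaaaccaaaGGCCCTTTTCAGGGCCac
Hist3h2ba: ccccaacccaaaGGCTCTTTTCAGAGCCac
Hist3h2a: acagacaccaaaGGCTCTTTTCAGAGCCac

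Hist1h4d, which fell, carries the second form, and the 12 bases before the stem-loop differed from gene to gene. The models also differed in the length that follows, which did not separate members that fell from members that rose. The Hist1h2ao model ended 31 bases after the stem-loop and that of Hist1h2ad 42 bases after it, while 169 bases followed in Hist3h2ba, 770 in Hist1h4d, 840 in Hist1h1c, 1153 in Hist1h1e and 1643 in Hist3h2a. Over all members 20 models ended within 100 bases of the stem-loop, 20 ran further and 23 held no stem-loop, and AATAAA or ATTAAA stood in the last 50 bases of 2, 9 and 4 of them. The absence of the motif says only that these letters are not in the annotated model. The members were short, with 312 to 7425 exonic bases, a median of 539 and 45 of 63 under 1000 bases. Among 15092 tested genes with a length the median was 4272 bases, and 3.18% were under 1000. Levels of different genes are therefore compared per kilobase, and shares of the histone counts, given next, are not corrected for length.

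H2A messages made up most of the histone signal. In the 66 libraries H2A genes took 84.4 to 94.7% of the histone counts, with a median of 90.8%. The medians of the other types were 3.52% for H1, 3.20% for H2B, 1.30% for H4 and 1.13% for H3. A single gene, Hist1h2ao (chr13:21810465-21810944, + strand, GRCm38), held 52.8 to 64.4%, median 60.2%. A run of 12 A stands just before its stem-loop, as printed above. The longest run is 5 in Hist1h2ad, 2 in Hist1h2ai and 8 in Hist1h2ae, and 15 in the much less abundant Hist1h2ac. The part of such runs in the counts was not tested. With Hist1h2ad, Hist1h2ai and Hist1h2ae, 3 more H2A genes of the same cluster, the share was 80.2 to 92.9%. Per kilobase Hist1h2ao had a mean of 172898 normalised counts, Hist1h2ad 33891, Hist1h2ai 33185, Hist1h2ae 8868, Hist3h2ba 3004 and the H1 gene Hist1h1b 2627.

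These H2A genes are close copies, so the split of reads between them is uncertain. Of the 50-base windows in the Hist1h2ao model, 93.5% also occur in Hist1h2ap (chr13:21833026-21833507, - strand), a copy listed at 0 in all 66 libraries. Hist1h2ao shared 62.4% of its windows with Hist1h2ad, 54.8% with Hist1h2ai and 45.7% with Hist1h2ae. Across the libraries the ratio to Hist1h2ao stayed between 0.192 and 0.351 for Hist1h2ad and between 0.116 and 0.201 for Hist1h2ai, and ran from 0.0355 to 0.198 for Hist1h2ae. In all, 29 of the 63 members shared more than 50% of their windows with other clustered histone rows.

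From day 5 to day 11 in WT most of the clustered histone genes went down while a few H2A and H2B genes went up. The comparison averaged the differences within p1, p2 and pM, on log2(normalised count + 1), and a gene was called at a Benjamini-Hochberg adjusted p below 0.05 in limma over all 15714 genes. Among the members 38 were lower and 5 higher at day 11, against 22.8% lower and 25.1% higher of all genes tested. The median log2 difference was -1.16 over the members and 0.04 over all genes. None of the 18 high-total libraries is on either side of this comparison. The number called fell to between 27 and 28 when any one of the WT day 11 replicate 3 libraries was left out. Libraries that share genotype, day and number had an estimated correlation of 0.375, and a fit that takes it into account called 28, 25 lower and 3 higher. In that fit Hist1h2ad, Hist1h2ai, Hist1h4d, Hist1h1c and Hist2h2be did not pass (limma adjusted p of 0.0586, 0.0713, 0.0659, 0.114 and 0.108).

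**Figure D2:**
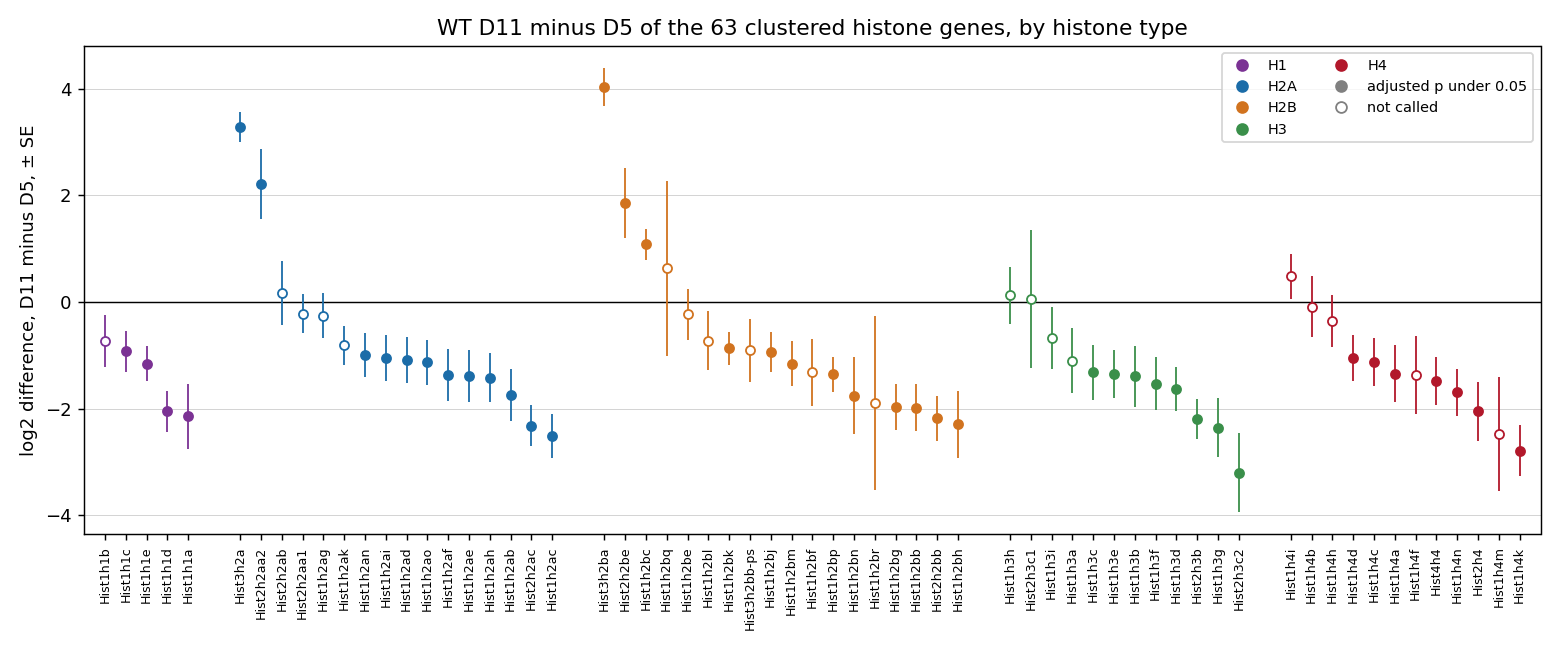
Log2 difference between day 11 and day 5 in WT (vertical axis, with standard errors) for each of the 63 members, ordered by histone type, with filled points at a limma adjusted p below 0.05. Most points lie below 0 in every type, and Hist3h2ba and Hist3h2a stand highest, at 4.03 and 3.28.

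The 5 linker histone genes had differences of -2.15 to -0.74, with a median of -1.16, and 4 fell. Hist1h1d (chr13:23553262-23560686), the gene for H1.3, ran at 215 to 835 normalised counts in the 8 WT day 5 libraries, median 343, and at 29.0 to 140 in the 6 day 11 libraries, median 113. Every day 11 library was below every day 5 library, and the difference was -2.05 ± 0.38 (SE; limma adjusted p = 1.66e-05). Hist1h1a, the gene for H1.1, went from 122 to 836, median 231, to 16.0 to 277, median 48.3. Those ranges overlapped, and the difference was -2.15 ± 0.60 (limma adjusted p = 0.00275).

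Hist1h1e, which encodes H1.4 and was second to Hist1h1b among the H1 genes per kilobase (1076 against 2627), fell from 1634 to 4078, median 2082, to 695 to 1719, median 1100.5. That is a difference of -1.16 ± 0.33 (limma adjusted p = 0.00285), with an overlap of the ranges. The order per kilobase rests on the annotated models. That of Hist1h1e has 1930 bases, 1153 of them after the stem-loop, and that of Hist1h1b has 743. Uncorrected for length, their means over all libraries were 2076 and 1952. Hist1h1c, the gene for H1.2, fell by 0.92 ± 0.38 (limma adjusted p = 0.0409), from a median of 214 to 121. That call was lost under 12 of 25 fits, a total that counts the main fit, as do the totals of fits given below. Hist1h1b, the gene for H1.5, had medians of 1388 and 822 and a difference of -0.74 ± 0.49 that did not pass (limma adjusted p = 0.216). At day 11 its replicate 2 libraries held 1742, 1756 and 994 and the replicate 3 libraries 401, 650 and 501.

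Among the H2A genes 10 of 16 fell and 2 rose, with a median of -1.07. Hist1h2ao stood at 62199 to 114122 normalised counts at day 5, median 81970, and at 25470 to 53784 at day 11, median 36340. All day 11 libraries were below all day 5 libraries, a difference of -1.13 ± 0.42 (limma adjusted p = 0.0242). The call did not hold without one or another of the 3 WT day 11 replicate 3 libraries (adjusted p of 0.0670, 0.0710 and 0.0679) or without WT day 5 pM replicate 3 (0.0513). Hist1h2ad (-1.09), Hist1h2ai (-1.05) and Hist1h2ae (-1.39) fell with limma adjusted p of 0.0318, 0.0391 and 0.0162, and lost the call under 6, 11 and 3 of 25 fits.

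The steepest fall of an H2A gene was that of Hist1h2ac (chr13:23681467-23683948, - strand). It went from 88.6 to 246, median 206, to 14.4 to 47.5, median 28.3, with no overlap and a difference of -2.51 ± 0.41 (limma adjusted p = 1.81e-06). Its neighbour on the + strand, the H2B gene Hist1h2bc (chr13:23684199-23692908), changed in the other direction. Hist2h2ac, of the Hist2 cluster, fell by 2.32 ± 0.38, also with no overlap. Hist2h2aa1, the most abundant H2A gene of that cluster at 1620 per kilobase, had a difference of -0.22 ± 0.36 that did not pass the test.

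**Figure D3:**
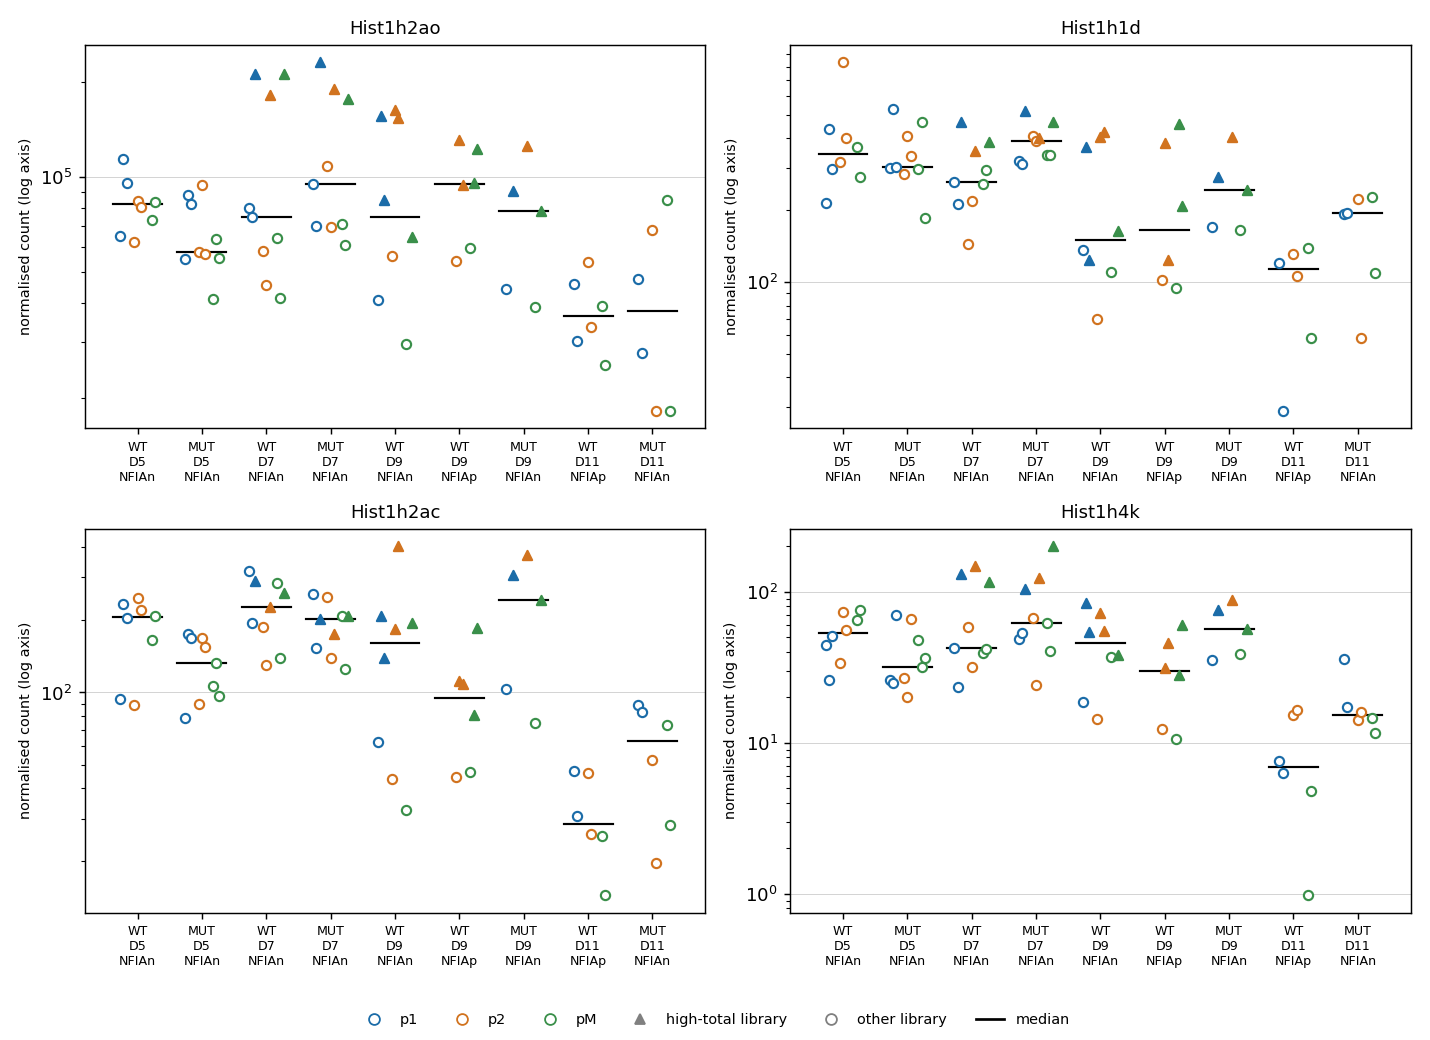
Normalised counts (vertical axes, log scale) of Hist1h2ao, Hist1h1d, Hist1h2ac and Hist1h4k in each library by genotype, day and gate, with domains in colour, high-total libraries as filled triangles and black lines at the medians. In WT all 6 day 11 libraries lie below all 8 day 5 libraries for these 4 genes. Of the 63 members 12 were separated in this way in WT, and 3 in the other direction. In MUT 4 were separated downwards, none of them shown here, and 2 upwards. The same counts were not made over all genes.

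The H2B genes were the most divided type, with 9 of 18 lower and 3 higher at a median of -1.05. Hist2h2bb fell by 2.18 ± 0.42, from a median of 310 to 86.7, and every day 11 library was below every day 5 library. Hist1h2bp fell by 1.36 ± 0.33 (limma adjusted p = 0.000622), from 125 to 320, median 255, to 37.1 to 169, median 100.1. The 3 that rose were Hist3h2ba, Hist2h2be and Hist1h2bc, described after the H4 genes.

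Of the H3 genes 8 of 12 fell and none rose, with a median of -1.38. Hist2h3c2 (chr3:96238108-96239127, - strand) went from 164 to 408, median 337, to 0 to 123, median 58.9. No day 11 library reached the lowest day 5 library. Its near copy Hist2h3c1 was at 0 in 47 of the 66 libraries, so reads can be split between them. The pair summed fell by 2.11 ± 0.41 (limma adjusted p = 2.93e-05). Hist2h3b fell by 2.20 ± 0.37 and Hist1h3g by 2.36 ± 0.55, both without overlap, while Hist1h3a, Hist1h3i, Hist1h3h and Hist2h3c1 did not pass.

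Of the H4 genes 7 of 12 fell and none rose, with a median of -1.36. Hist1h4k (chr13:21750194-21750505, - strand) went from 25.8 to 75.7, median 53.1, to 0.977 to 16.5, median 6.94, a difference of -2.79 ± 0.48 (limma adjusted p = 3.53e-06). The ranges did not overlap, and the lowest day 11 values were those of pM, 0.977 and 4.80. Hist1h4d, the most abundant H4 gene at 733 per kilobase, fell by 1.05 ± 0.43 (limma adjusted p = 0.0400), a call lost under 10 of 25 fits. Hist4h4, the single gene of the Hist4 cluster (chr6:136801553-136804415, - strand), fell from 54.7 to 161, median 91.0, to 20.0 to 54.7, median 33.7, a difference of -1.48 ± 0.45 (limma adjusted p = 0.00566). Those ranges met without overlapping.

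Hist3h2ba (chr11:58948920-58949533, + strand, named H2bu2 in RefSeq), an H2B gene, rose the most of all members. In WT its normalised counts were 163 to 327 at day 5, median 201, and 438 to 2947 at day 7, median 627. At day 9 they were 1898 to 4840 in NFIAn, median 2686, and 2338 to 4427 in NFIAp, median 2866. At day 11 the 6 libraries held 5333 and 2291 in p1, 4847 and 3301 in p2 and 5100 and 2884 in pM, replicate 2 first. Every library of day 7 was above every library of day 5, and the sets of day 9 and day 11 overlapped.

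The difference of Hist3h2ba from day 5 to day 11 was 4.03 ± 0.36 (limma adjusted p = 2.71e-13). It was 2.09 ± 0.32 from day 5 to day 7 and 1.55 ± 0.32 from day 7 to day 9 NFIAn (limma adjusted p of 2.67e-06 and 0.000510). From day 9 to day 11 in NFIAp it was 0.38 ± 0.42 and did not pass (limma adjusted p = 0.629). The 3 highest day 7 values were the replicate 3 libraries, at 1942, 2947 and 2853. Without the high-total libraries the differences were 1.40 from day 5 to day 7 and 1.79 from day 7 to day 9 NFIAn, and both passed.

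Hist3h2a (chr11:58954685-58956830, + strand, H2aw in RefSeq), an H2A gene downstream of Hist3h2ba on the same strand, rose over the same days. Its WT counts were 68.7 to 127 at day 5, median 87.3, then 115 to 464, median 187, at day 7. At day 9 they were 332 to 651 in NFIAn, median 513, and 476 to 817 in NFIAp, median 589. At day 11 they were 706 to 1116, median 864. The day 5 and day 11 sets did not overlap, and the difference was 3.28 ± 0.28 (limma adjusted p = 7.26e-14). The steps were 1.27 ± 0.25 to day 7, 1.10 ± 0.25 to day 9 NFIAn and 0.57 ± 0.33 from day 9 to day 11 in NFIAp, and the last did not pass (limma adjusted p = 0.295). The first and second steps also passed with the high-total libraries left out, the first at 0.81.

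Sequence sharing touched these genes little. The Hist3h2a model shared 2.00% of its 50-base windows with other clustered histone rows, and Hist3h2ba shared 22.1%, with Hist3h2bb-ps alone. That pseudogene was at 20.5 or less in every WT library.

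Hist3h2ba came to hold most of the H2B counts. As a share uncorrected for length, it made up 7.33 to 17.6% of them at WT day 5, median 11.4%, and 62.6 to 80.3% at day 11, median 74.8%. The medians between were 25.4% at day 7, 51.5% at day 9 NFIAn and 60.9% at day 9 NFIAp. In MUT the median went from 11.0% at day 5 to 62.8% at day 11. Ranked by mean counts per kilobase among the 63 members, it moved in WT from place 19 (374) at day 5 to place 4 (6448) at day 11, and Hist3h2a from place 47 (41.9) to place 12 (419). The H2B sum of all 18 genes was 1272 to 2636 at WT day 5 and 3659 to 6908 at day 11. The H3 sum in the same libraries was 1027 to 2539 and 290 to 1013.

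**Figure D4:**
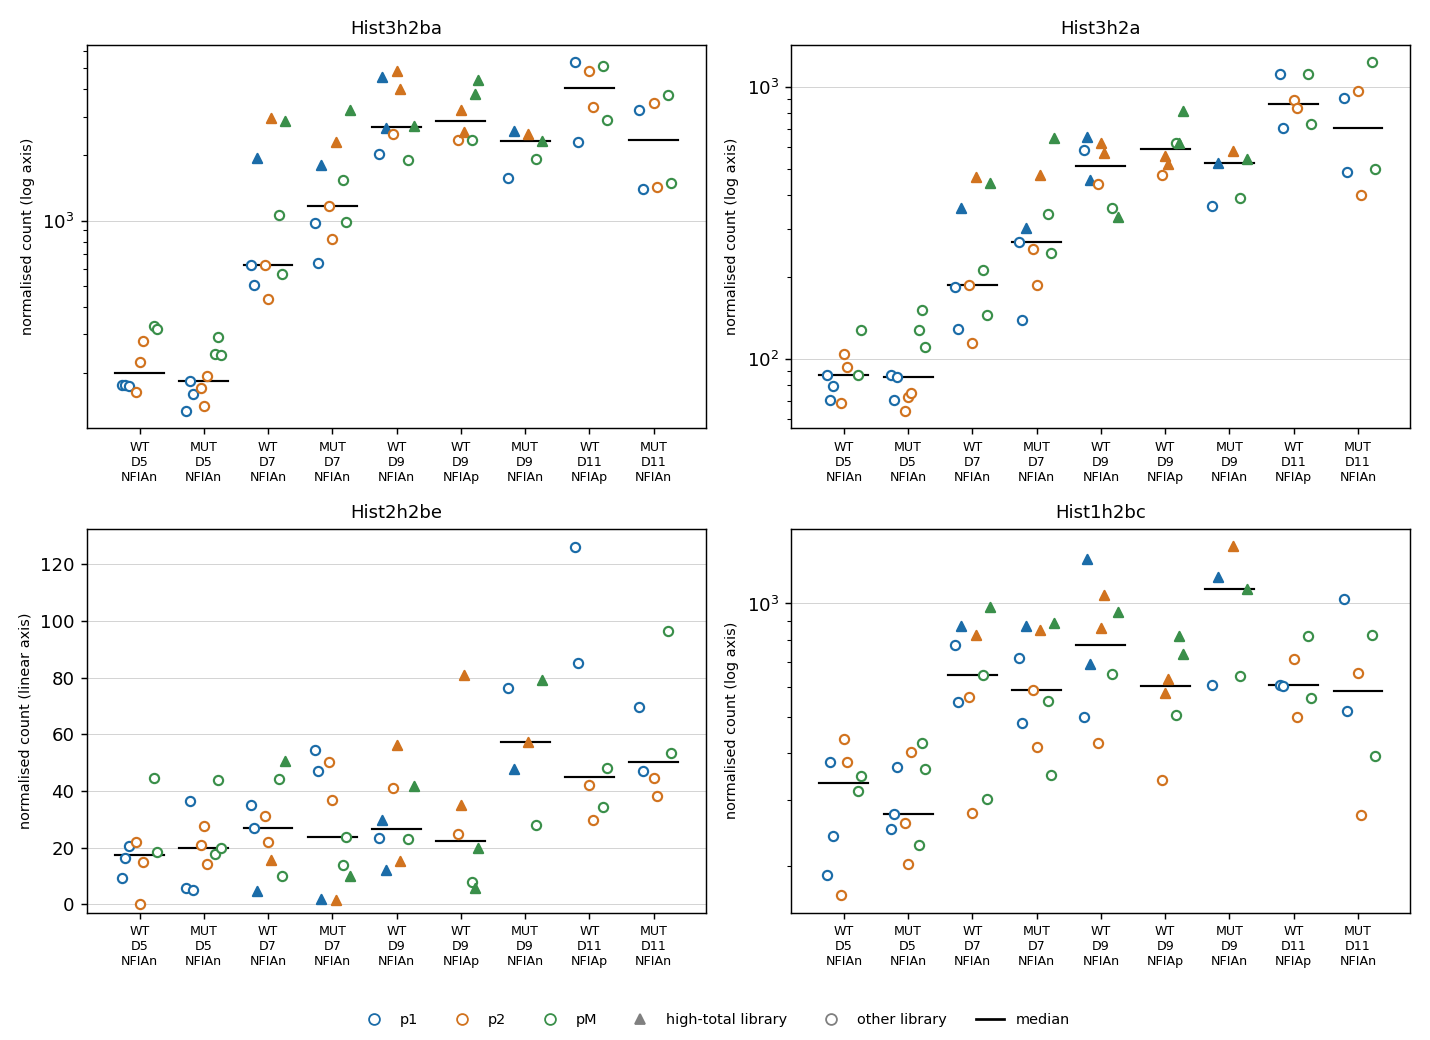
Normalised counts (vertical axes, log scale except for Hist2h2be, which is linear) of Hist3h2ba, Hist3h2a, Hist2h2be and Hist1h2bc in each library by genotype, day and gate, with domains in colour, high-total libraries as filled triangles and black lines at the medians. The WT day 11 libraries of Hist3h2ba, 2291 to 5333, lie above all day 5 libraries, 163 to 327, and those of Hist2h2be overlap.

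Hist1h2bc, known to make both stem-loop and polyadenylated messages, was at 167 to 435 at WT day 5, median 332, at 277 to 976 at day 7, median 646, and at 499 to 819 at day 11, median 605. All day 11 libraries were above all day 5 libraries, with a difference of 1.08 ± 0.30 (limma adjusted p = 0.00259). The step to day 7 was 1.00 ± 0.27 (limma adjusted p = 0.00605), and it was 0.71 (0.0715) without the high-total libraries. Hist2h2be (chr3:96221119-96223738, + strand), an H2B gene of the same kind, was low, at 0 to 44.7, median 17.4, at day 5 and 29.8 to 126, median 45.0, at day 11. The ranges overlapped, and the difference was 1.86 ± 0.65 (limma adjusted p = 0.0158), a call lost under 3 of 25 fits.

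The remaining call in the upward direction, Hist2h2aa2, rests on few reads. It was at 0 in all 8 WT day 5 libraries, and at day 11 it was at 17.3 and 0 in p1, 0 and 12.6 in p2 and 5.86 and 4.80 in pM. All of its 50-base windows occur in Hist2h2aa1, and the pair summed had a difference of -0.21 ± 0.36 (limma adjusted p = 0.667). Hist2h2aa2 was also the member nearest the filter, with 3 libraries at 10 or more, ahead of Hist1h2bn and Hist3h2bb-ps with 10 each. Just outside were Hist1h4j, with 1 library at 10.0, Hist1h2aa with at most 7.66, Hist1h2ba with 5.59, Hist1h1t with 1.94 and Hist1h2ap at 0. A member that passed only through the group where it is high had to differ there. Of the 63, 36 were at 10 or more in all 66 libraries.

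Members were next sorted by how their models end. Of 15 members with AATAAA or ATTAAA in the last 50 bases, 6 were lower and 3 higher at WT day 11, with a median difference of -0.35. Of the 48 without it, 32 were lower and 2 higher, with a median of -1.32. Of all genes 22.8% were lower and 25.1% higher. The 15 include Hist1h2bq, Hist1h2br and Hist2h3c1, whose reads can be split with a near copy. Their differences had SE of 1.64, 1.63 and 1.29. The 3 that rose with a signal were Hist3h2ba, Hist3h2a and Hist2h2be. Members that fell with one included Hist2h4, Hist4h4, Hist1h2ae and Hist1h1c. Hist1h2bc rose with no such signal in the last 50 bases of its model. In MUT the medians were -0.24 with and -0.73 without the signal. By the stem-loop alone the WT medians were -1.24 where the model ended within 100 bases, -1.37 where it ran further and -0.99 where no stem-loop was found. No test was made of the difference between these classes.

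The promoters of the 2 genes that rose most are printed as the 250 bases before the RefSeq start of each gene on the + strand of GRCm38, chr11:58948661-58948910 for Hist3h2ba and chr11:58954435-58954684 for Hist3h2a. Capitals mark CCAAT and TATAAA, and the octamer ATTTGCAT, known from H2A and H2B promoters, on either strand.
Hist3h2ba: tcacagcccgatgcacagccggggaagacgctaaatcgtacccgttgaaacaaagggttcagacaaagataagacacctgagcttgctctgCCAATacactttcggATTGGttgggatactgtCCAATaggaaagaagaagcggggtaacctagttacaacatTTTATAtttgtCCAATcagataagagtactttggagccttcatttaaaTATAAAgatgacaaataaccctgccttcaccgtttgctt
Hist3h2a: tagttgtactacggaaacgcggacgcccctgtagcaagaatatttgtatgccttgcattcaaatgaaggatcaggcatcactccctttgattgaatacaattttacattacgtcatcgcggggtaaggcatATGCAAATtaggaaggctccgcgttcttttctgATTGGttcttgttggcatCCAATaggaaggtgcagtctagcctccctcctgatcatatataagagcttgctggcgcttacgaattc

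The Hist3h2ba window held 4 copies of CCAAT, 2 of TATAAA and none of the octamer, and the Hist3h2a window 2 of CCAAT, none of TATAAA and 1 octamer. Promoters were matched for 57 of the 63 members. CCAAT was in 47 of them (82.5%) and in 33.9% of all 32851 promoters, TATAAA in 27 (47.4%) and 12.4%, and ATTTGCAT in 11 (19.3%) and 1.60%. The octamer was in 6 of 16 H2A and 5 of 15 H2B promoters and in no H1, H3 or H4 promoter. CCAAT was in all 16 H2A and all 15 H2B promoters and in 3 of 11 H4 promoters. A match is a description of letters and shows no binding.

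Between neighbouring days fewer members passed. From day 5 to day 7 in WT, 5 rose and none fell, against 10.0% and 9.51% of all genes, and the median of the members was 0.38. The 5 were Hist3h2ba, Hist3h2a, Hist1h2bc, Hist1h2be (1.22 ± 0.43, limma adjusted p = 0.0379) and Hist1h4i (1.07 ± 0.38, 0.0424). Hist1h2be lost the call under 12 of 28 fits, and the count fell to 3 without any one of 6 libraries. Without the high-total libraries only Hist3h2ba and Hist3h2a passed and the median was -0.03. From day 7 to day 9 NFIAn, 2 rose, Hist3h2ba and Hist3h2a, and 2 fell, against 6.30% and 8.09% of all genes, at a median of -0.46. Scaled by total reads, 2 rose and 4 fell. The fallers were Hist2h4 (-1.77 ± 0.50, limma adjusted p = 0.0109) and Hist1h3d (-1.07 ± 0.38, 0.0470), which lost the call under 3 and 17 of 28 fits. Neither passed with correlated libraries (0.0772 and 0.204), and without WT day 9 pM replicate 1 they stood at -1.55 (0.0581) and -0.73 (0.244). Without the high-total libraries 13 fell and 2 rose, at a median of -0.85. Day 9 was then represented by replicate 1 alone.

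From day 9 to day 11 in the NFIAp libraries of p2 and pM, 9 members fell and none rose, against 3.98% and 6.16% of all genes. The median was -0.99. Hist1h2bp fell by 1.88 ± 0.39 (limma adjusted p = 0.000825), Hist1h4k by 1.85 ± 0.57 (0.0261), Hist1h2ac by 1.68 ± 0.49 (0.0194) and Hist2h2ac by 1.61 ± 0.45 (0.0153). Those calls were lost under 1, 10, 6 and 5 of 21 fits. The other 5 were Hist1h2bg, Hist2h2bb, Hist1h2bm, Hist2h3b and Hist1h2bk, at -1.59 to -1.13. Without the high-total libraries no member passed, the median was -0.18 and Hist1h2bp stood at -1.42 (limma adjusted p = 0.0580). The count of 9 fell to 4 with correlated libraries and to 2 with only the compared groups fitted, and ran from 1, without WT day 11 p2 replicate 3, to 13 when a single library was left out.

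In WT the gate and the domains gave no call in the limma fit of all 66 libraries without a replicate block. At day 9 NFIAp against NFIAn in p2 and pM, 0 of 63 members passed in limma and 0 had an unadjusted p below 0.05, with a median of -0.22, where 0.146% of all genes were higher and 0.0573% lower. DESeq2 called 1. The domains were compared in WT as a mean over days 5, 7, 9 NFIAn and 11, and not in MUT or day by day. For p2 against p1, 0 passed in limma and 0 had an unadjusted p below 0.05 (all genes 1.28% and 0.554%), and DESeq2 called 2. For pM against p2, 0 passed and 1 had an unadjusted p below 0.05 (all genes 0.687% and 1.77%), DESeq2 called 1, and the median was -0.32. A replicate block within day gave calls for pM against p2 and for the gate, listed in the last section. Without the high-total libraries limma again called 0 in each of the 3 comparisons, at medians of -0.04, -0.09 and -0.17, with day 9 then represented by replicate 1.

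No member passed the test of MUT against WT on any day in the limma fit of all 66 libraries without a replicate block. At days 5, 7, 9 and 11 the members with an unadjusted p below 0.05 numbered 0, 0, 4 and 4, and their medians were -0.31, 0.14, 0.57 and 0.16. DESeq2 called 1 on each day, and a replicate block within day also gave calls on each day, listed in the last section. With the high-total libraries left out limma called 0, 0, 0 and 2, at medians of -0.31, 0.25, 0.49 and 0.16. The 2 were higher in MUT, and day 9 was then compared in p1 and pM alone, at 1 library a group. Of all genes 0.172%, 0.776%, 0.356% and 1.80% were higher in MUT and 0.286%, 1.25%, 0.344% and 2.34% lower. From day 5 to day 11 within MUT 16 members fell and 5 rose, against 22.0% and 24.1% of all genes, at a median of -0.70. Scaled by total reads, a setting chosen after seeing the data, 25 fell and 4 rose. With correlated libraries 9 fell and 3 rose, and the count of 21 ran from 13, without MUT day 11 p2 replicate 3, to 27 when a single library was left out. The test of the difference between the 2 changes called no member (0.293% higher and 0.477% lower of all genes), 5 had an unadjusted p below 0.05 and DESeq2 called 1. Its median over the members was 0.49, positive in 47 and negative in 16, and -0.01 over all genes.

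The changes of WT and MUT from day 5 to day 11, which share no library, had the same sign in 59 of 63 members. In both, 4 rose and 14 fell. The same counts were not made over all genes, of which 48.0% were called in WT and 46.0% in MUT. Whether the agreement is particular to the histone genes was not tested. Hist3h2ba in MUT went from 134 to 293, median 184, to 3206 and 1400 in p1, 3470 and 1428 in p2 and 3766 and 1487 in pM, replicate 2 first, a difference of 3.55 ± 0.35 (limma adjusted p = 4.68e-12). At day 9 the 5 MUT libraries held 1573 and 2576 in p1, 2487 in p2 and 1911 and 2322 in pM. At day 11 the difference of MUT from WT was -0.75 ± 0.38 (limma adjusted p = 0.289), and the difference between the changes was -0.47 ± 0.50 (0.887). Hist3h2a rose by 2.91 ± 0.27 in MUT, from a median of 86.0 to 705, without overlap. Hist1h2bc rose by 0.90 ± 0.29 and Hist2h2be by 1.61 ± 0.63 (limma adjusted p of 0.00906 and 0.0321), calls lost under 3 and 10 of 26 fits. The 3 left out MUT day 11 replicate 2 of p1, p2 or pM (0.0557, 0.0689 and 0.0598). By type, the MUT counts of higher and lower members were 0 and 2 of 5 for H1, 1 and 4 of 16 for H2A, 4 and 3 of 18 for H2B, 0 and 4 of 12 for H3 and 0 and 3 of 12 for H4. Hist1h2ao had a difference of -0.80 ± 0.41 in MUT that did not pass (limma adjusted p = 0.109).

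A pair of the H2B calls in MUT concerns near-identical copies. Hist1h2bq and Hist1h2br share 97.3% of the 50-base windows of Hist1h2bq. Hist1h2bq was at 0 in 28 libraries and Hist1h2br in 30, both were above 0 in 8, and no library had both at 0. In the 6 MUT day 11 libraries Hist1h2bq was at 34.9 to 76.0 and Hist1h2br at 0 throughout, and the test called the first higher and the second lower than at day 5, calls lost under 11 and 1 of 26 fits. Summed, the pair had a difference of -0.65 ± 0.39 in MUT (limma adjusted p = 0.176) and of -1.26 ± 0.40 in WT (0.00830).

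**Figure D5:**
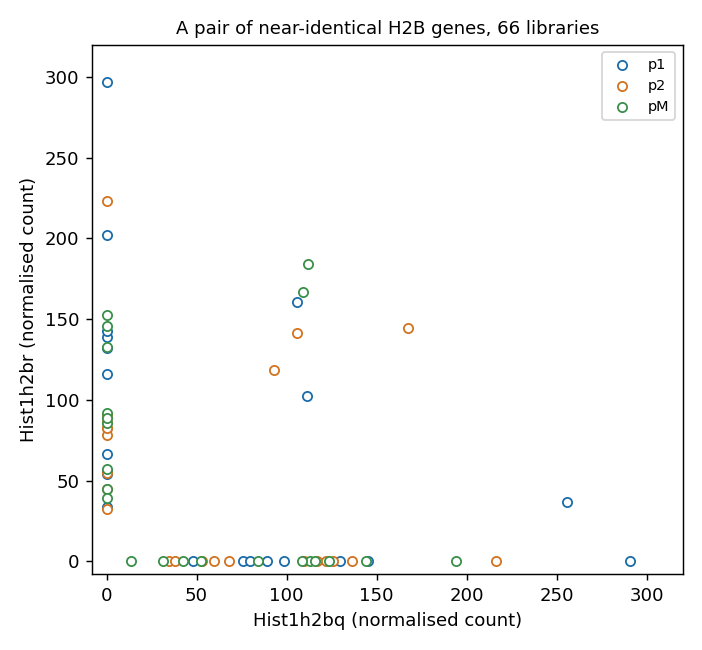
Normalised counts of Hist1h2bq (horizontal axis) against Hist1h2br (vertical axis), 1 point per library, for the near-identical copies. Most points lie on one axis or the other, and their sum runs from 13.6 to 312.

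The genes that make, cut and chaperone histones, taken as lists that were drawn up with earlier results of these data known, mostly fell over the same days. The counts of these lists stand against the 22.8% lower and 25.1% higher of all genes in WT, and 22.0% and 24.1% in MUT. All 26 S phase genes fell in WT from day 5 to day 11, at a median of -1.63, and 25 of 26 in MUT, at -1.15. Pcna, the DNA polymerase clamp, fell by 1.34 ± 0.22 in WT. The fall was not particular to S phase genes. Of 25 G2 and M phase genes 23 fell in WT, at a median of -1.34, and 22 in MUT, at -1.04, and none rose. Of 21 tested genes for 3′ end processing and turnover of histone messages, 15 fell in WT, at a median of -0.68, and 10 in MUT, at -0.38, and none rose. Slbp went from 10311 to 15402, median 12703, at WT day 5 to 4435 to 7717, median 5849, at day 11. Those sets did not overlap, and the difference was -1.07 ± 0.11 in WT and -0.68 ± 0.11 in MUT. Casp8ap2 (-1.65 ± 0.24) and Lsm11 (-0.86 ± 0.21), both of the processing machinery, fell, while Npat, a transcription activator of histone genes, and Lsm10, of the U7 particle, did not pass. Of 19 chaperones 12 fell and 1 rose, and Asf1b, which hands H3 and H4 to new DNA, fell by 1.30 ± 0.18.

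The replication-independent histones, whose genes lie outside the clusters and mostly give polyadenylated messages, were mixed. The model of H2afx, counted among them, also holds the stem-loop motif. Of 11 tested genes 3 rose and 2 fell in WT, with a median of 0.06, shares near the 25.1% and 22.8% of all genes. H3f3b, a gene for H3.3, rose by 0.73 ± 0.22 (limma adjusted p = 0.00470), and H2afz, for H2A.Z, fell by 0.92 ± 0.39 (0.0467). H3f3a, H1f0, H1fx and H2afx did not pass.

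Markers of other cells also differed between these days, where 25.1% of all genes were higher and 22.8% lower. The 18 markers of postmitotic neurons all rose in WT and summed to 3464 to 15798 at day 5 and 27335 to 56090 at day 11. In MUT they summed to 2681 to 13286 and 36594 to 45911. Of 12 cell cycle exit genes 9 rose and 1 fell in WT, and 10 rose and 1 fell in MUT. Of 9 neural crest markers 7 rose, with sums of 1393 to 3039 and 12631 to 34004, and of 12 tested mesenchyme markers 6 rose, with sums of 253 to 1088 and 1385 to 7835. The sum of 10 progenitor markers was 22059 to 37104 at day 5 and 100566 to 221564 at day 11, with 4 higher and 3 lower. The part of these cells in the histone differences was not tested.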

How the data were processed

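Poly(A) RNA was measured in 66 libraries. The authors deposited 1 table of normalised signal per gene: counts divided by a DESeq2 size factor, with mm10 as the genome, per the submitters' processing notes. Versions, aligner, strandedness and library kit are not given in the sources used here. Deposited values were whole multiples of what 1 read is worth, so reads were recovered (100% of values whole within 0.01). Groups follow the labels. limma 3.58.1 (R 4.3.3) fitted a mean per group over all 66 libraries, with a variance trend, to log2(value + 1) of 15714 genes with 10 or more in at least 2 libraries. p-values are two-sided and Benjamini-Hochberg adjusted over those genes, with calls below 0.05. A simulation of WT day 11 against day 5 changed 200 of 15714 genes. It returned 44% of genes set to change 2-fold, 89% of those set to change 4-fold, and 1.48% false calls. The real comparison called 48.0% of genes, so these rates need not hold for it. The members and lists were chosen with earlier results of these data known. Named were the 10 members of highest mean, up to 3 called members a direction and comparison of largest difference with a mean of 50 or more, 8 members of textbook interest, those nearest the filter and listed pathway genes. Hist2h2bb, Hist2h3b, Hist1h3g and a few others named once fall outside that rule and were chosen after their values were seen. Alternatives were edgeR 4.0.16 and DESeq2 1.42.0 on recovered reads, other scalings, filters and pseudocounts, the replicate block, and libraries left out. Gene models came from GENCODE M21 (GRCm38), promoters from RefSeq (GRCm38.p6), searched in Python 3.11.15. No 2 replicates agreed within counting noise (chi-square per degree of freedom of 26.8 or more in 55 pairs).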

Additional observations from a re-analysis of the deposited data

How the results depend on the processing

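Of 44 named differences with a call, 22 kept it under every alternative tried, 22 lost it under at least 1 and 0 reversed. Hist3h2ba and Hist3h2a kept all of theirs, and from WT day 5 to day 11 ranged over 3.82 to 4.23 and 3.17 to 3.39. The numbers of members called are given here against the main ones: 43 for WT day 11 against day 5, 5 for day 7 against day 5, 4 for day 9 NFIAn against day 7, 9 for day 11 against day 9 NFIAp, 21 for MUT day 11 against day 5 and 0 for the others. No filter, a pseudocount of 8, TMM scaling, edgeR, and the 2 alternatives chosen after seeing the data (scaling by total reads, copies summed) kept all 13 within 1.5 times. Scaling by total reads shifted the median of all genes by -0.14, -0.17 and 0.30 in the 3 steps between days, and moved the split in MUT day 11 against day 5 from 5 higher and 16 lower to 4 and 25, and in day 9 against day 7 from 2 and 2 to 2 and 4. With only the compared groups fitted, day 9 against day 7 and day 11 against day 9 each gave 2. Same-numbered libraries did not all deviate together, with correlations of -0.140 to 0.401. Every pair was above 0.1 in 0 of 13 comparisons, so the numbers were not taken as pairs. Within a day many pairs were above 0.1. They were 3 of 8, 8 of 9, 3 of 4 and 4 of 6 for MUT against WT on days 5, 7, 9 and 11. For p2 against p1 they were 9 of 11, for pM against p2 7 of 9 and for the gate 3 of 5. In a fit without a block, a shift shared by same-numbered libraries of a day stays in the spread. With a replicate block the counts were 8 for day 7 against day 5, 26 for day 11 against day 9 and 35 for MUT day 11 against day 5. With a replicate block within day they were 1 for the gate, 5 for pM against p2, and 3, 4, 3 and 7 for MUT against WT on days 5, 7, 9 and 11. With correlated libraries they were 28, 3, 2 and 4 for the 4 WT day comparisons and 12 for MUT. Without the 18 high-total libraries they were 2, 15 and 0 for the steps to days 7, 9 and 11, and 2 for MUT against WT at day 11. With DESeq2 they were 8 for day 7 against day 5, 17 for day 11 against day 9, 1 for the gate, 2 for p2 against p1, 1 for pM against p2, 1 for MUT against WT on each day and 1 for the difference between the changes. With each library left out in turn the ranges were 27 to 43, 3 to 6, 2 to 6 and 1 to 13 for the WT day comparisons in the order above, 13 to 27 for MUT day 11 against day 5, 0 to 1 for MUT against WT at day 11 and 0 for the rest. The WT minimum of 27 came without day 11 p2 replicate 3, the MUT minimum of 13 without MUT day 11 p2 replicate 3. Day 7 against day 5 gave 3 without any one of the day 7 replicate 3 libraries, WT day 5 p1 replicate 2, p2 replicate 1 or pM replicate 3. Day 9 against day 7 gave 2 without WT day 9 pM replicate 1. Day 11 against day 9 gave 1 without day 11 p2 replicate 3, 4 and 2 without day 11 pM replicates 2 and 3, 2 and 4 without day 9 p2 NFIAp replicates 2 and 3, and 5 and 2 without day 9 pM NFIAp replicates 2 and 3. MUT against WT at day 11 gave 1 without WT day 11 p1 replicate 2 or 3. The cause of these moves was not tested. Depth was enough for the abundant H2A genes, and values under about 10 counts rest on few reads.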
